A study of Mus musculus with 6 samples.

Results

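The 34 genes described here build or control the motile cilia of ependymal cells, the epithelium that lines the brain ventricles. They were taken from the expression files of a mouse hippocampus study by matching the Ensembl gene identifiers to a list of 34 symbols, and all 34 were among the 29872 genes listed in each of 6 RNA sequencing libraries. Membership rests on the symbols and on no measured value, but the list was chosen with earlier results of these data known. It holds 1 transcription factor, 9 dynein heavy chains, 1 dynein light chain, 4 radial spoke genes, 4 central pair genes, 3 genes of the molecular ruler and the nexin-dynein regulatory complex, 2 genes that tether inner dyneins, 6 genes of proteins in or on the doublet microtubules, and 4 others.

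The libraries came from hippocampus of C57BL/6J mice, 3 in a control group (shControl, genotype labelled WT) and 3 in a knockdown group (shHepaCAM). In the knockdown group an adeno-associated virus, a gene delivery vector, was injected in the CA1 field on both sides to lower hepaCAM, a cell adhesion molecule of astrocytes. Whether the control animals were injected at all is not given in the labels. The study addressed learning, memory and cholesterol synthesis after this knockdown, and the cilia genes were not its stated subject. No label says that the libraries are separate mice, so every p-value below measures the spread between libraries, which may be technical.

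A motile cilium beats because dynein arms, fixed at regular intervals along the outer microtubule doublets of the axoneme, walk along the neighbouring doublet. Radial spokes and the central pair of microtubules regulate the arms, and Foxj1 is the transcription factor that switches on most of the genes of this machine. In the brain, ependymal cells carry tufts of such cilia that move cerebrospinal fluid. The epithelium of the choroid plexus, which secretes that fluid, also bears cilia, so in bulk tissue any reads of these genes from ependyma and from choroid plexus cannot be told apart. Fewer cells of a type and less RNA per cell cannot be told apart in such samples either.

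Depth ran from 14903198 to 17341842 reads in the control libraries and from 15816576 to 16384937 in the knockdown libraries, as recovered from the deposited RPKM values (reads per length of transcript and depth of library). Hepacam (ENSMUSG00000046240) was 33.4 to 37.3 RPKM in the control and 20.9 to 24.4 RPKM in the knockdown libraries, a limma change of -0.63 in log2(RPKM + 1) with an SE of 0.07 and a Benjamini-Hochberg adjusted p = 0.00924. The change was past the threshold in limma, but without shControl replicate 3 the adjusted p was 0.0526, and the exact permutation test can give no p below 0.1 for 3 libraries against 3. For replicates 1, 2 and 3, hippocampal neuron markers summed to 1628, 1620 and 1657 RPKM in the control and 1341, 1154 and 1316 RPKM in the knockdown. All 3 knockdown sums thus lay below all 3 control sums. Astrocyte markers summed to between 813.3 and 918.9 RPKM over the 6 libraries. Between the groups limma called 3 of 8 neuron markers lower (Slc17a7, Camk2a and Snap25) and 1 of 8 astrocyte markers (Slc1a2), against 1.84% of all genes, and called none of the 16 higher. By single marker the direction was mixed, with 3 neuron and 5 astrocyte markers at positive changes, and limma-voom called Wfs1 higher (0.64, adjusted p = 0.0471). Of 19 alternatives, the call was lost in 7 for Slc17a7, 10 for Camk2a, 11 for Snap25 and 6 for Slc1a2, with each control library left out among them. None of these 16 genes was lowest of its group in both of the libraries that were low in Ttr, described next.

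Ttr, the thyroxine carrier that choroid plexus makes in large amounts, differed between libraries of the same group. For shControl replicates 1, 2 and 3 the values were 62.1, 4192 and 3617 RPKM, and for shHepaCAM replicates 1, 2 and 3 they were 2278, 1660 and 25.5 RPKM. One library of each group, shControl replicate 1 and shHepaCAM replicate 3, was therefore far below the others. All 20 choroid plexus markers on the list used here were lowest of their group in both of these libraries. Ttr, by which the libraries were picked, is among the 20. Without it all 19 were lowest in both, against 12.8% of all genes tested. The summed level of the 20 was 127, 4983 and 4187 RPKM in the control and 2777, 2069 and 81.6 RPKM in the knockdown libraries. Without Ttr it was 64.82, 790.9 and 570.3 RPKM and then 498.5, 408.7 and 56.05 RPKM. Between the groups 0 of the 20 were called in limma (lowest adjusted p = 0.474) and 0 in limma-voom, and 0 had an unadjusted p under 0.05. The limma change was nevertheless negative in 19 of the 20, against 5487 of 13864 genes tested. Its median was -0.57 over the 20 and 0.05 over all genes tested.

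All 34 cilia genes were above 0 in every library, at low levels. The mean over the 6 libraries ran from 0.05 RPKM (Spag17) to 9.73 RPKM (Foxj1), and 3 genes, Foxj1, Rsph1 and Rsph9, had a mean of at least 5 RPKM. A mean of at least 1 RPKM, the level needed to enter the limma fit, was reached by 19 genes, and 15 lay below it. Behind these levels stood between 2 and 580 reads per gene and library, and 9 genes had at least 100 reads in every library. For the low genes the whole reads are given, and a second fit (limma-voom) was made on the reads of all genes averaging at least 10, which took in every listed gene except Spag17. Values below are in the order shControl replicates 1, 2 and 3, then shHepaCAM replicates 1, 2 and 3.

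**Figure D1:**
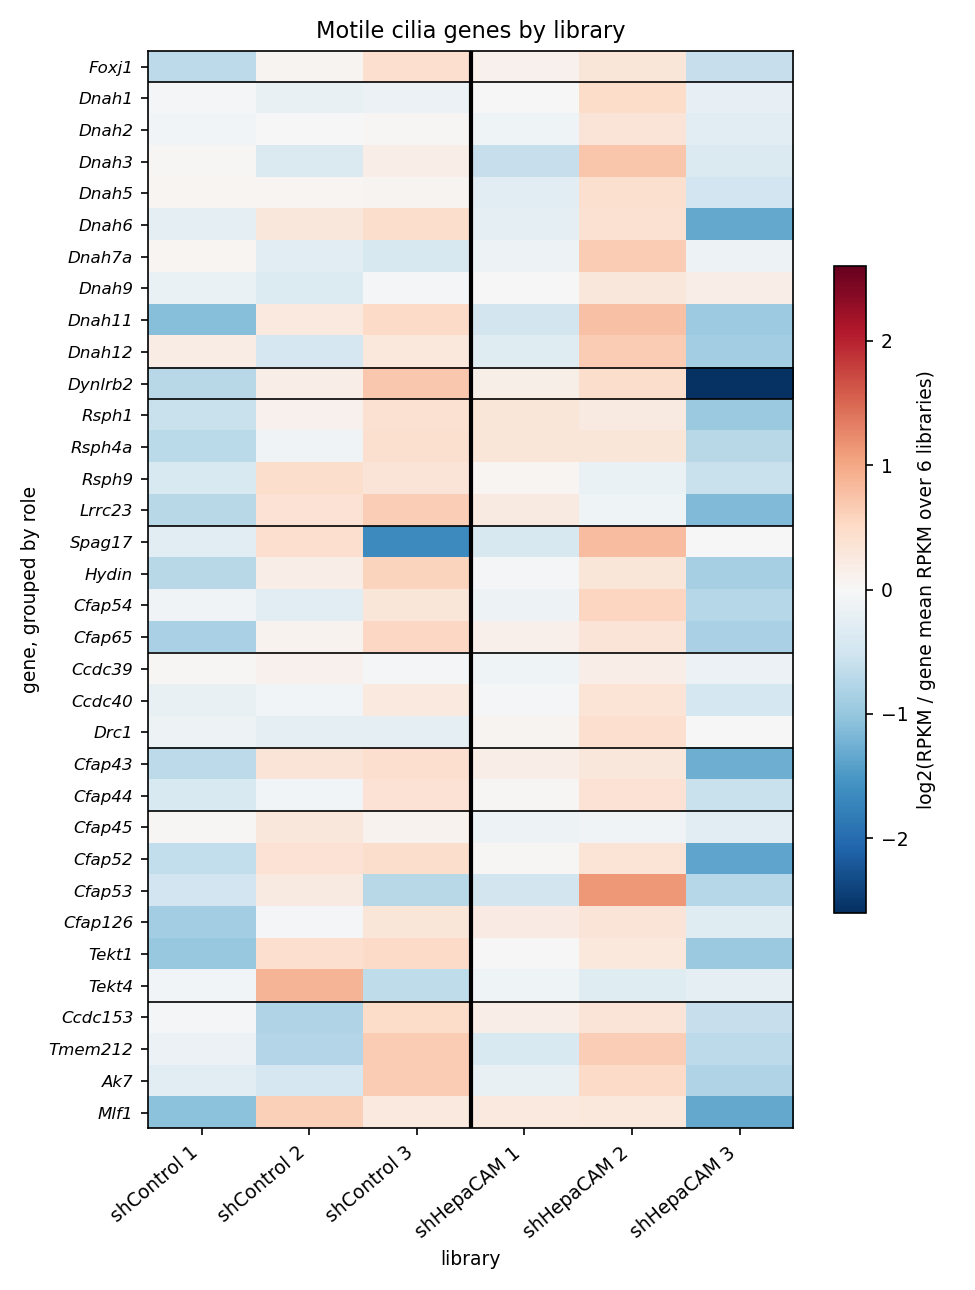
Heat map of the 34 genes (lines, grouped by role) in the 6 libraries (columns); the colour is the log2 ratio of each RPKM value to the gene's mean over the 6 libraries. Most genes are blue (below their mean) in shControl replicate 1 and shHepaCAM replicate 3, while Dnah9, Ccdc39 and Drc1 stay near their mean in all 6.

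No cilia gene passed the test between knockdown and control. Of the 19 genes tested, 0 passed an adjusted p of 0.05, against 6.07% of the 13864 genes tested (4.23% higher and 1.84% lower in the knockdown). At an unadjusted p under 0.05 there was 1 of 19 (Drc1), against 24.2% of all genes. The median log2 change of the 19 was -0.05, beside 0.05 over all genes tested, with a range from -0.43 (Dynlrb2) to 0.31 (Drc1). On the recovered reads, limma-voom called 0 of 33 genes, against 7.05% of 16821 genes, and 2 (Dnah9 and Drc1) had an unadjusted p under 0.05, against 23.2% of all genes. Over the main settings, 19 alternatives and the limma-voom fits of the low genes with 1 library left out, 0 of 504 gene values were called, and the lowest adjusted p was 0.115 (Dnah9).

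The split inside each group was larger. The 34 genes summed to 52.7, 76.2 and 92.8 RPKM in the control and 76.1, 86.9 and 45.0 RPKM in the knockdown libraries. In whole reads the sums were 3478, 4445 and 4539 in the control and 4074, 5142 and 3021 in the knockdown libraries. The low library of each group was the one low in Ttr. Of the 34 genes, 20 were lowest of their group in both low-Ttr libraries. Among the 19 tested the count was 12, against 12.8% of all genes tested, and among the 33 that averaged 10 reads or more it was 20, against 13.1%. The median of the 19 tested genes stood at 55.5% of the mean of the other 2 control libraries in shControl replicate 1. In shHepaCAM replicate 3 it stood at 53.6% of the mean of the other 2 knockdown libraries. The 15 genes with a mean under 1 RPKM are not in these medians. Over all genes tested the same medians were 102% and 97.8%, and over the 20 choroid plexus markers 4.37% and 6.61% (4.84% and 6.91% without Ttr). Slopes of these genes on Ttr are given below, but whether choroid plexus RNA is a cause of the spread of the cilia genes was not tested.

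**Figure D2:**
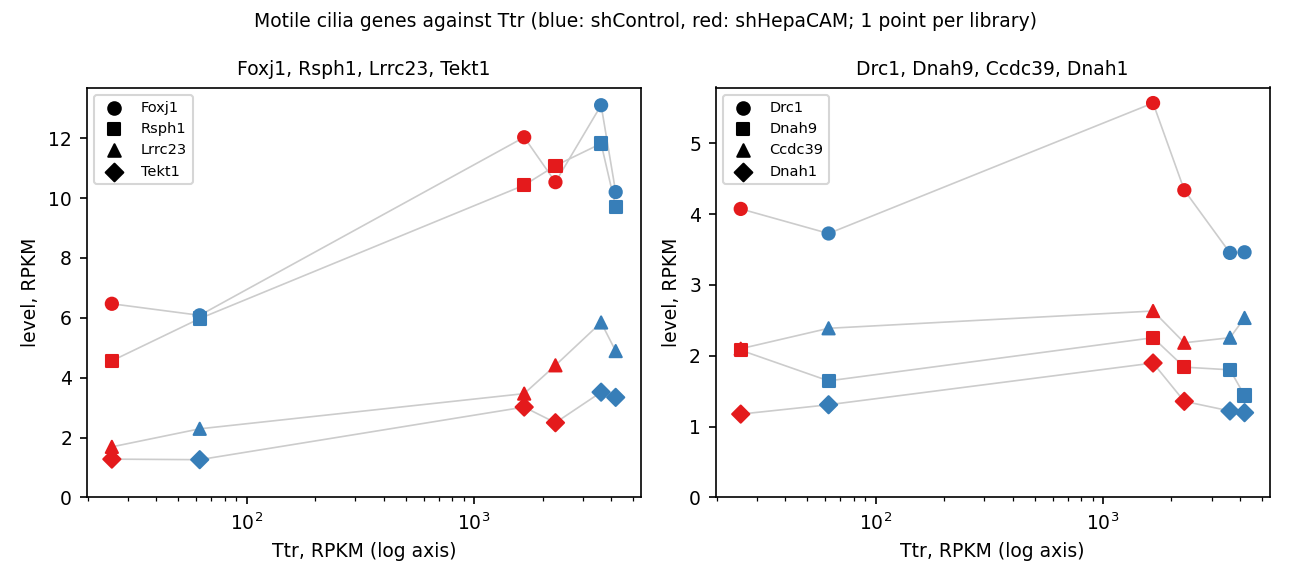
Level of 8 cilia genes (vertical axes, RPKM, from 0) against Ttr (horizontal axes, RPKM, log scale), 1 point per library, blue for shControl and red for shHepaCAM, with grey lines joining the points of a gene. On the left, Foxj1, Rsph1, Lrrc23 and Tekt1 are lowest of their group in the library with 62.1 RPKM (control) or 25.5 RPKM (knockdown) of Ttr, and on the right Drc1, Dnah9, Ccdc39 and Dnah1 are not lowest in both.

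Foxj1 (ENSMUSG00000034227), the regulator of the programme, had the highest mean level of the list. It measured 6.08, 10.2 and 13.1 RPKM in the control libraries and 10.5, 12.0 and 6.47 RPKM in the knockdown libraries, from 273 to 512 reads each. The groups overlapped and their means were nearly the same, at 9.79 ± 3.52 (SD, n = 3) and 9.68 ± 2.88 RPKM (SD, n = 3). The limma change was 0.00 (SE 0.29, adjusted p = 0.998), with a 95% interval from 0.627-fold to 1.60-fold on the (RPKM + 1) scale. A change within that interval could not be told from no change here. The interval is not adjusted for the number of genes tested, so it is not a limit of detection. In the low-Ttr libraries Foxj1 stood at 52.2% (control) and 57.3% (knockdown) of the other 2 libraries of the group.

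The radial spoke genes were low in the same libraries as Foxj1, and all 4 were lowest of their group in both low-Ttr libraries. Rsph1 (ENSMUSG00000024033), a component of the spoke head, was 5.97, 9.71 and 11.8 RPKM in the control and 11.1, 10.4 and 4.56 RPKM in the knockdown libraries. Rsph9 (ENSMUSG00000023966), another spoke head protein, was 6.57, 11.9 and 11.0 RPKM in the control and 8.96, 7.70 and 5.83 RPKM in the knockdown libraries. Rsph4a (ENSMUSG00000039552), also of the spoke head, was lower, at 1.04, 1.58 and 2.24 RPKM and then 2.10, 2.10 and 1.02 RPKM. Each of these 3 had overlapping groups, and each was at most 70.0% of the other 2 libraries of its group in the low-Ttr libraries. Lrrc23 (ENSMUSG00000030125), a leucine-rich repeat protein of the radial spoke, was 2.29, 4.89 and 5.84 RPKM in the control and 4.41, 3.47 and 1.69 RPKM in the knockdown libraries. Its limma change was -0.34 (SE 0.34, adjusted p = 0.569) with a 95% interval from -1.13 to 0.44, and for Rsph9 the change was -0.33 (SE 0.22, adjusted p = 0.409). Rsph1 and Rsph4a changed by -0.11 and 0.06 in limma (adjusted p = 0.871 and 0.892).

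Dynlrb2 (ENSMUSG00000034467), a roadblock-type dynein light chain, had the widest spread of the tested genes. It was 2.73, 5.08 and 7.36 RPKM in the control and 5.0, 6.24 and 0.768 RPKM in the knockdown libraries, which are 26, 49 and 61 reads and then 44, 56 and 7 reads. In shHepaCAM replicate 3 it was thus at 13.7% of the other 2 knockdown libraries, a value that rests on the 7 reads. Its limma change of -0.43 (SE 0.54, adjusted p = 0.662) had a 95% interval from -1.71 to 0.84. Leaving out shHepaCAM replicate 3 turned the direction, and over all settings the change ran from -0.82 to 0.20.

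The dynein heavy chains, the motor subunits of the arms, did not move as one. Dnah9 (ENSMUSG00000056752), of the outer arm, was the most abundant, at 1.65, 1.44 and 1.80 RPKM in the control and 1.84, 2.25 and 2.08 RPKM in the knockdown libraries, from 398 to 580 reads. All 3 knockdown libraries were above all 3 control libraries, and neither low-Ttr library was low. The limma change was 0.22 (SE 0.11, adjusted p = 0.275), and limma-voom on the reads gave 0.34 (adjusted p = 0.115). Dnah1 (ENSMUSG00000019027), of the inner arm, was level in the control at 1.31, 1.20 and 1.22 RPKM and was 1.36, 1.90 and 1.18 RPKM in the knockdown. The groups overlapped, with a limma change of 0.13 (SE 0.14, adjusted p = 0.597).

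The other 7 heavy chains had means under 1 RPKM and were fitted on reads alone. Dnah11, of the outer arm, followed the pattern of Foxj1 with 29, 75 and 77 reads in the control and 41, 99 and 31 in the knockdown libraries. Dnah6, of the inner arm, had 97, 144 and 139 reads and then 91, 143 and 44. Both were lowest in the low-Ttr libraries of each group. Dnah2 and Dnah5 were too in RPKM, but shControl replicate 1 stood at 94.2% (Dnah2) and 99.2% (Dnah5) of the other control libraries. In reads, shControl replicate 3 was the lowest control library of Dnah2 and Dnah5. Dnah2, of the inner arm, had between 155 and 237 reads, and Dnah5, of the outer arm, between 66 and 122. The reads of Dnah3, Dnah7a and Dnah12 ran from 13 to 39 per library. Dnah7a belongs to a family of near-identical copies and how shared reads were assigned is not stated, so its value is uncertain. In limma-voom the changes of these 7 ran from -0.55 (Dnah6, adjusted p = 0.415) to 0.34 (Dnah7a, adjusted p = 0.598).

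The central pair genes were mostly at few reads. Cfap65 (ENSMUSG00000047021) was the one with a mean above 1 RPKM, at 0.957, 1.83 and 2.49 RPKM in the control and 1.87, 2.15 and 0.945 RPKM in the knockdown libraries. Hydin (ENSMUSG00000059854), whose loss in mice leads to hydrocephalus, had 42, 79 and 90 reads in the control and 61, 81 and 36 reads in the knockdown libraries. Both genes were lowest of their group in the low-Ttr libraries and had overlapping groups. Cfap54 had 117, 104 and 135 reads and then 104, 172 and 71, so that it was low in shHepaCAM replicate 3 and not in shControl replicate 1. Spag17 had 2 to 12 reads per library, too few to order the libraries. Limma gave a change of -0.05 for Cfap65 (adjusted p = 0.928), and limma-voom gave -0.20 for Hydin (adjusted p = 0.794) and -0.08 for Cfap54 (adjusted p = 0.894).

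Of the genes of the ruler and the regulatory complex, Ccdc39 and Drc1 were not lowest of their group in both low-Ttr libraries, and Ccdc40 was. Ccdc39 (ENSMUSG00000027676), which with Ccdc40 sets the spacing of arms and spokes along the doublet, was 2.39, 2.53 and 2.25 RPKM in the control and 2.18, 2.63 and 2.10 RPKM in the knockdown libraries. Its change was -0.04 (SE 0.10, limma adjusted p = 0.838), and its 95% interval from -0.28 to 0.20 was the narrowest of the 19. Ccdc40 had 70, 77 and 83 reads and then 71, 96 and 56, and stood at 81.7% and 65.5% of the others in the low-Ttr libraries. Drc1 (ENSMUSG00000073102), a scaffold of the nexin-dynein regulatory complex, was 3.73, 3.46 and 3.45 RPKM in the control and 4.34, 5.57 and 4.07 RPKM in the knockdown libraries. Its groups did not overlap, with a mean of 3.55 ± 0.155 RPKM (SD, n = 3) in the control and 4.66 ± 0.798 RPKM (SD, n = 3) in the knockdown. The limma change was 0.31 (SE 0.11, adjusted p = 0.150) and the limma-voom change 0.38 (adjusted p = 0.183), so Drc1 did not pass the threshold.

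Groups that do not overlap were frequent over all genes. Dnah9 and Drc1, both higher in the knockdown, were 2 of the 19 tested genes, against 31.5% of all genes tested (20.9% with the knockdown above). Cfap45, below the filter of 1 RPKM, had 58, 71 and 53 reads in the control and 48, 50 and 45 in the knockdown libraries, and lay lower in the knockdown in RPKM (limma-voom -0.31, adjusted p = 0.419). Of all genes averaging at least 10 reads, 29.8% had groups that did not overlap. The other 31 genes had overlapping groups.

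Cfap43 and Cfap44, which form the tether of an inner dynein, were both lowest in the low-Ttr libraries. Cfap44 (ENSMUSG00000071550) was 0.950, 1.18 and 1.62 RPKM in the control and 1.27, 1.62 and 0.834 RPKM in the knockdown libraries. Cfap43 had 66, 135 and 124 reads and then 111, 122 and 42 reads. Their changes were -0.01 in limma (Cfap44, adjusted p = 0.976) and -0.28 in limma-voom (Cfap43, adjusted p = 0.733).

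Among the proteins in or on the doublet microtubules, 3 of 6 were in the limma fit. Tekt1 (ENSMUSG00000020799), a tektin, was 1.26, 3.34 and 3.52 RPKM in the control and 2.49, 3.02 and 1.28 RPKM in the knockdown libraries. Cfap52 (ENSMUSG00000020904), a microtubule inner protein, was 0.705, 1.42 and 1.5 RPKM and then 1.12, 1.39 and 0.421 RPKM. Cfap126 (ENSMUSG00000026649), also called Flattop, was 1.15, 2.11 and 2.69 RPKM and then 2.49, 2.73 and 1.72 RPKM. All 3 were lowest of their group in both low-Ttr libraries and had overlapping groups, with limma changes of -0.16, -0.17 and 0.17 (adjusted p = 0.794, 0.698 and 0.664). Cfap45 was also lowest in both, but at 88.6% and 89.6% of the others. Tekt4, with 11 to 37 reads per library, and Cfap53, with 12 to 47, were not.

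The last 4 genes split again. Ccdc153 (ENSMUSG00000070306), a coiled-coil axonemal protein used as an ependymal marker, was 3.70, 2.18 and 5.24 RPKM in the control and 4.22, 4.78 and 2.49 RPKM in the knockdown libraries. Tmem212 (ENSMUSG00000043164), a membrane protein that also marks ependyma, was 2.86, 1.85 and 4.97 RPKM and then 2.38, 4.93 and 1.96 RPKM. Ak7 (ENSMUSG00000041323), an adenylate kinase of motile cilia, was 1.42, 1.29 and 2.73 RPKM and then 1.52, 2.46 and 1.01 RPKM. In these 3 the lowest control library was replicate 2, the one highest in Ttr, and not replicate 1. Mlf1 (ENSMUSG00000048416) had the other pattern, with 15, 49 and 33 reads in the control and 35, 36 and 12 reads in the knockdown libraries. None of the 4 passed between the groups, with limma changes from -0.10 to 0.06 and a lowest adjusted p of 0.857, and the 95% interval of Tmem212 ran from -0.83 to 0.73.

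**Figure D3:**
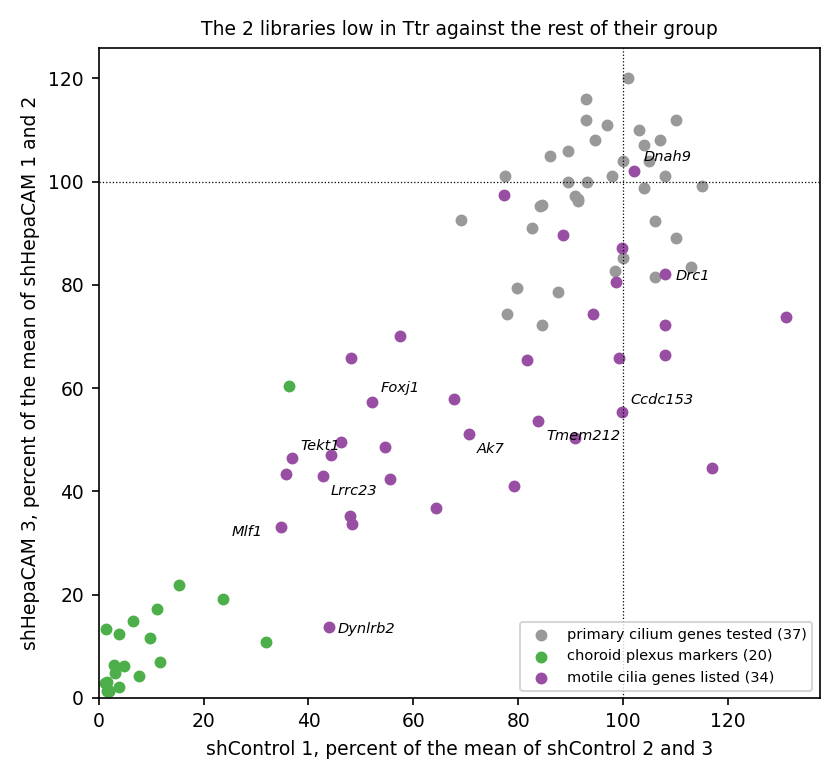
Each point is 1 gene (34 cilia genes in purple, 20 choroid plexus markers in green, 37 primary cilium genes in grey), placed by its level in shControl replicate 1 (horizontal axis) and shHepaCAM replicate 3 (vertical axis), each as a percent of the mean of the other 2 libraries of the same group. Among the cilia genes Dynlrb2 is lowest on the vertical axis at 13.7%, Foxj1 lies at 52.2% and 57.3%, and Dnah9 at 102% on both axes.

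The order of the libraries by cilia genes was not that by Ttr outside the 2 low libraries. The control library with the most Ttr, replicate 2, was below replicate 3 in the summed cilia genes, and the knockdown library with the highest sum, replicate 2, had less Ttr than replicate 1. Over the 34 genes the lowest of the 6 libraries was shHepaCAM replicate 3 in 22 and shControl replicate 1 in 4. The highest was shHepaCAM replicate 2 in 16, shControl replicate 3 in 14 and shControl replicate 2 in 4.

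A limma fit of the slope of each gene on log2 Ttr, with the group as a second term, was added after the data were seen. Its slopes are the change in log2(RPKM + 1) per unit of log2 Ttr. Rsph1 (slope 0.15, SE 0.02, adjusted p = 0.036) and Lrrc23 (slope 0.15, SE 0.02, adjusted p = 0.0423) passed the threshold, 2 of 19, against 0.433% of all genes with a positive slope past it. Next came Tekt1 (0.14, adjusted p = 0.0766), Foxj1 (0.12, adjusted p = 0.0959), Rsph9 (0.10, adjusted p = 0.101) and Dynlrb2 (0.23, adjusted p = 0.122). The slope was positive in 18 of 19 genes, against 6903 of 13864 genes tested, and had an unadjusted p under 0.05 in 11 of 19, against 7.24%. Dnah9, Dnah1, Ccdc39 and Drc1 had slopes between -0.00 and 0.02. Among the choroid plexus markers other than Ttr, 13 of 19 passed.

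Both calls depended on single libraries. Rsph1 passed without shControl replicate 2 (adjusted p = 0.0261) and did not pass without any other single library (adjusted p from 0.0977 to 0.292). Lrrc23 did not pass when any 1 of the 6 was left out (adjusted p from 0.0732 to 0.308). With a filter and pseudocount of 0.1 RPKM both passed.

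**Figure D4:**
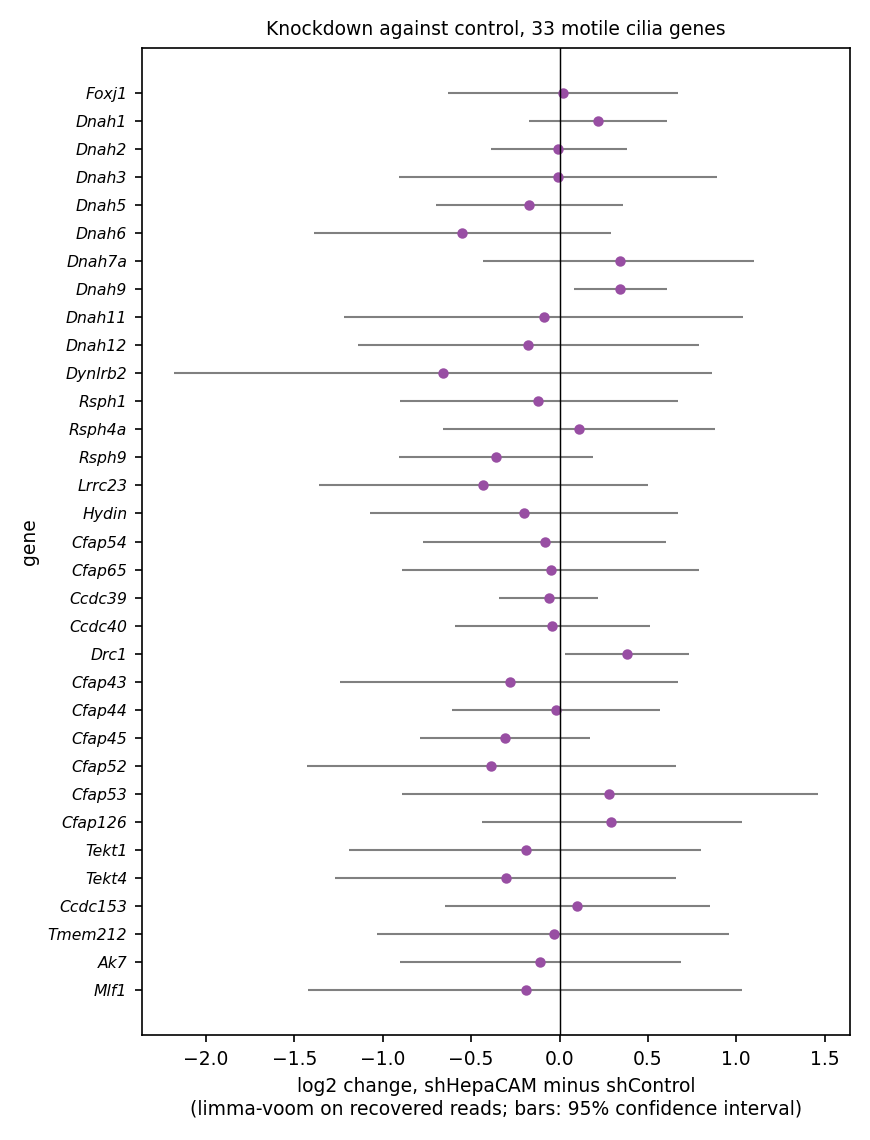
Change between groups (horizontal axis, log2 on recovered reads by limma-voom for the 33 genes that averaged 10 reads or more, knockdown minus control) with 95% intervals, grouped by role. The intervals of Dnah9 and Drc1 lie above 0 before adjustment for multiple tests, and none of the 33 passed after it.

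The promoters of the list were searched for the letters of the sites that ciliary transcription factors are known to bind. RFX factors bind the X-box, searched as GTNNC and GGNAAC with 3 bases between them, and Foxj1 is a forkhead factor, for which TGTTTAC was searched, each on both strands in the 250 bases before to 50 bases after the start of the gene. RefSeq promoters (GRCm38.p6) were matched for 27 of the 34 genes, 30 promoters in all. The X-box letters were in 5 of the 30 (16.7%), in 21 of 105 promoters (20%) of the other motile cilia genes described below, and in 2.22% of 32851 promoters of all genes. The forkhead letters were in 3 of 30 (10%), in 7 of 105 promoters (6.67%) of the other motile cilia genes, and in 3.65% of all. Shown here, with the matched letters in capitals, are the 4 X-box matches that lay from 15 to 27 bases before the start, and the 3 forkhead matches. Tekt4 held 2 more X-box matches, at the start itself and 160 bases before it, which are not printed. All are written 5′ to 3′ on the strand of the gene. In Tekt1 and Cfap43 the capitals are the reverse complement of the searched letters.
Cfap45, chr1:172521086-172521149, plus strand: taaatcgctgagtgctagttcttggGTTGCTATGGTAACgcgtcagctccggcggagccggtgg
Hydin, chr8:110266931-110266994, plus strand: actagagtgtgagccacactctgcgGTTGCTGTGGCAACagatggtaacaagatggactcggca
Tekt1, chr11:72361859-72361922, minus strand: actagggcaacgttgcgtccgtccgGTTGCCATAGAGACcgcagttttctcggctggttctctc
Cfap44, chr16:44394747-44394810, plus strand: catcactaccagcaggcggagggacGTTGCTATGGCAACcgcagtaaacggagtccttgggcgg
Mlf1, chr3:67373956-67374012, plus strand: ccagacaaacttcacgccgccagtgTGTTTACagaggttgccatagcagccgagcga
Ak7, chr12:105705826-105705882, plus strand: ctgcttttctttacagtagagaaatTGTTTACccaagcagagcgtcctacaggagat
Cfap43, chr19:47837385-47837441, minus strand: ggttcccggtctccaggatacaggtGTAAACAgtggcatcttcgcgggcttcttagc

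A match is a description of these letters, not evidence of binding. Over the whole list, 20 of the 34 genes (58.8%) were lowest of their group in both low-Ttr libraries. Of the 5 genes with an X-box match, 4 were among these 20 (Cfap45, Hydin, Tekt1 and Cfap44), and Tekt4, with a match at its start, was not. Of the 3 with a forkhead match Mlf1 and Cfap43 were and Ak7 was not. The genes with a match are too few to set apart from the share of the list.

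The wider set of motile cilia genes outside the list held 114 genes with values, of which 61 were tested. Limma called 0 of the 61 between the groups, against 6.07% of all genes tested, with a median change of -0.05. An unadjusted p under 0.05 was reached by 3 of the 61, against 24.2% of all genes tested. The smallest p-values belonged to Dnal1, a light chain of the outer arm (-0.19, limma adjusted p = 0.131), Rfx3, an X-box binding factor (-0.29, limma adjusted p = 0.139), Ccdc65 of the regulatory complex (-0.28, limma adjusted p = 0.181) and Cfap100 (0.25, limma adjusted p = 0.277). Of the 61, 31 were lowest of their group in both low-Ttr libraries, against 12.8% of all genes tested. Drc7, of the regulatory complex, had the clearest such pattern, at 1.49, 11.9 and 8.89 RPKM in the control and 5.88, 5.62 and 0.940 RPKM in the knockdown libraries, with a Ttr slope of 0.33 (limma adjusted p = 0.00462). Pifo (slope 0.20, limma adjusted p = 0.0495) and Ccdc113 (slope 0.13, limma adjusted p = 0.0458) also passed. With Drc7 that made 3 of the 61, against 0.433% of all genes with a positive slope past the threshold.

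On the recovered reads limma-voom called 1 of 102 genes of this wider set, Mcidas (ENSMUSG00000074651), against 7.05% of all genes in that fit. Mcidas encodes multicilin, a coregulator that acts upstream of Foxj1 when a cell becomes multiciliated. It was singled out after its values were seen, and its mean lay under 1 RPKM, so it was not in the limma fit. It had 11, 11 and 4 reads in the control and 57, 58 and 54 reads in the knockdown libraries, which are 0.271, 0.267 and 0.113 RPKM and then 1.52, 1.51 and 1.39 RPKM. All 3 knockdown libraries were well above all 3 control libraries, and the low-Ttr libraries did not stand apart. Per depth the reads were 6.64 times higher in the knockdown (95% interval 4.37 to 10.5, which covers counting error only). Limma-voom gave a log2 change of 2.76 (SE 0.38, adjusted p = 0.00542), and with each library left out in turn the change was 2.40 to 2.95 and the adjusted p 0.00906 to 0.0352. It ranked 108 of 16821 genes by adjusted p.

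The other regulators named here did not pass in limma or in limma-voom without further scaling. Rfx3 was lower past the threshold with TMM scaling alone (limma-voom -0.40, adjusted p = 0.045). Gmnc, which acts with multicilin upstream, was 0.415, 1.51 and 1.43 RPKM in the control and 0.805, 0.926 and 0.374 RPKM in the knockdown libraries (limma-voom -0.54, adjusted p = 0.588). Ccno, a cyclin-like protein needed to multiply basal bodies, was 1.12, 1.62 and 0.788 RPKM and then 1.46, 1.75 and 1.89 RPKM (limma 0.32, adjusted p = 0.278). Trp73, a transcription factor of multiciliated cells, was 0.887, 1.71 and 1.59 RPKM and then 1.03, 0.985 and 0.949 RPKM (limma -0.25, adjusted p = 0.391). Both Ccno and Trp73 had overlapping groups. Rfx2 was 1.27, 2.37 and 2.48 RPKM and then 2.41, 2.77 and 1.75 RPKM (limma 0.14, adjusted p = 0.712), low in the same 2 libraries as Foxj1. Deup1, which builds centrioles in multiciliated cells, had 7 to 11 reads per library, and Myb had 7 to 14. Foxn4 and Cdc20b had at most 2 reads in any library.

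**Figure D5:**
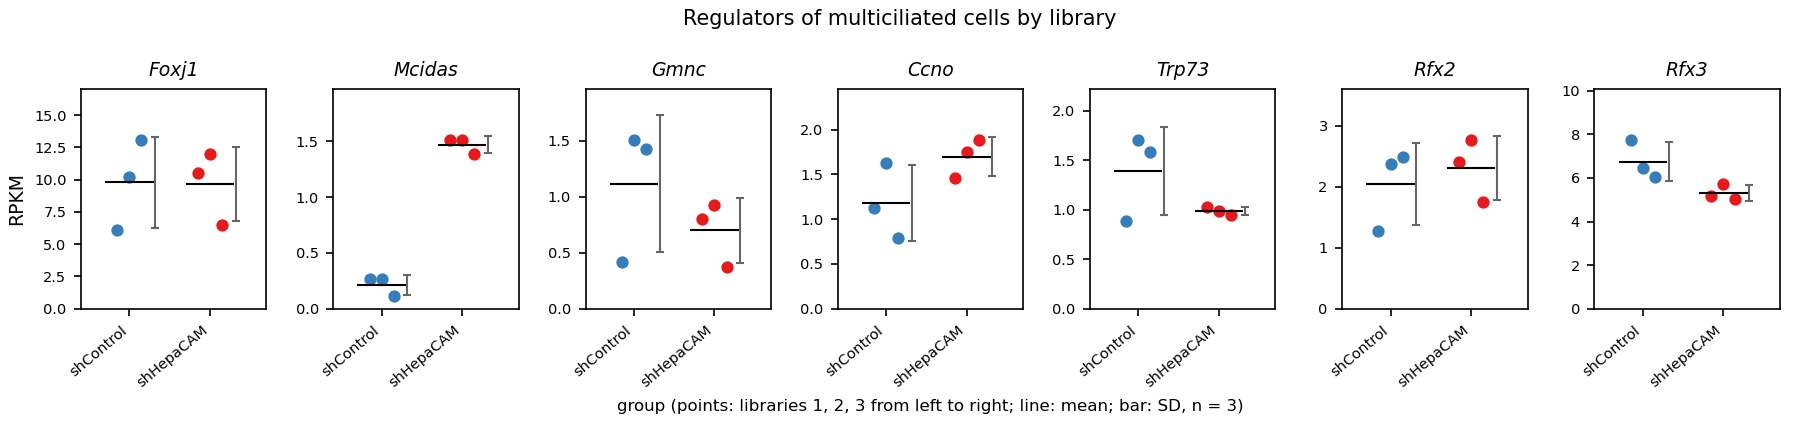
Level (vertical axis, RPKM, from 0) of regulators of multiciliated cells in the 6 libraries, 1 point per library, with a line at the group mean and a bar of the SD (n = 3). Mcidas lies at 0.113 to 0.271 RPKM in the control and 1.39 to 1.52 RPKM in the knockdown libraries, while the groups of Foxj1, Ccno and Trp73 overlap.

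Genes of ependymal cells outside the axoneme were few and not specific to that cell type in hippocampus. Vim, an intermediate filament that reactive astrocytes also make, rose in limma from 14.7 ± 1.58 (SD, n = 3) to 21.4 ± 2.81 RPKM (SD, n = 3), by 0.51 on the log2 scale (adjusted p = 0.0424). It was the 1 of 6 tested genes of that list to pass, where 4.23% of all genes were called higher. Vim lost the call in 14 of 19 alternatives, where the adjusted p reached 0.148. Rarres2 was 1.56, 1.02 and 1.49 RPKM and then 1.78, 1.56 and 1.43 RPKM, Cd24a ran from 2.37 to 5.74 RPKM, and Mia had 1 read in all 6 libraries together. Against 12.8% of all genes tested, 2 of the 6 were lowest of their group in both low-Ttr libraries. They were Nnat (124.6, 182.5 and 176.4 RPKM in the control, 146.8, 70.0 and 58.8 RPKM in the knockdown libraries, limma -0.90, adjusted p = 0.153) and the predicted gene Gm19935 (5.55, 10.2 and 8.64 RPKM and then 8.07, 8.99 and 4.18 RPKM, Ttr slope 0.13, limma adjusted p = 0.0457). Rarres2, Cd24a, Vim and S100b were not. These markers do not tell how much of the signal of the 34 genes came from ependyma.

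Genes of the primary cilium, the single non-motile cilium that neurons and astrocytes carry, were near the level of the other libraries in both low-Ttr libraries. Of 37 tested, 7 were lowest of their group in both low-Ttr libraries (18.9%, against 12.8% of all genes tested), and the median gene stood at 94.6% and 99.2% of the others there. Between the groups the limma change was positive in 14 of the 37 and negative in 23. Nphp4, a transition zone gene, was the 1 gene of the 37 called (limma 0.37, adjusted p = 0.0478), where 4.23% of all genes were called higher. It rose from 6.00 ± 0.182 (SD, n = 3) in the control to 8.07 ± 0.807 RPKM (SD, n = 3) in the knockdown. It lost the call in 13 of 19 alternatives, where the adjusted p reached 0.203.

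The mean standardised level of the 19 tested cilia genes was compared with 12180 other genes over the 6 libraries, as a description. The 10 genes most like it had a Pearson r of 0.962 to 0.989 over the 6 hippocampus libraries. They were Gpr17, Ap1g1, Rtn4rl1, Caskin1, Tmco1, Klhl15, Lrrc41, Ccdc91, Prag1 and Spag6l. Spag6l alone is on the wider list of cilia genes, at 0.987, 1.72 and 1.77 RPKM in the control and 1.47, 2.11 and 0.750 RPKM in the knockdown libraries. Gpr17 ran from 6.52 to 8.86 RPKM, while Caskin1 ran only from 35.7 to 39 RPKM and Tmco1 from 6.84 to 7.22 RPKM. No test was made on these likenesses, and with 12180 genes compared over 6 libraries such values can arise by chance.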

How the data were processed

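RNA sequencing of mouse hippocampus gave 6 libraries, grouped by their titles. The deposited values are RPKM, computed by the authors, 1 file per library. Per the submitters' processing notes, TopHat2 2.0.12, Bowtie2 2.0.6 and build mm39 were used. Not given in the sources used here are strandedness, annotation and the counting program. GENCODE M21, on another build, served for symbols (29805 of 29872 identifiers) and exon lengths.

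Whole reads were recovered from the RPKM steps. At the annotated length 91.7% of genes were within 0.01 of whole reads in all 6 libraries, and 99.99% were resolved when a length of their own was allowed. Limma 3.58.1 in R 4.3.3, with a trend, was run on log2(RPKM + 1) for 13864 genes averaging 1 RPKM or more, with Benjamini-Hochberg adjustment over all of them and a threshold of 0.05. The log2(RPKM + 1) scale understates changes of low genes. Limma-voom on the recovered reads of 16821 genes averaging 10 reads or more called 1186. Limma was tested on simulated libraries of 13863 genes for shHepaCAM against shControl (dispersion 0.01). It recovered 44.8% of 1.5-fold changes, 89.6% of 2-fold changes and 100% of 4-fold changes, and 6.59% of what it called was false. The simulation held no difference between libraries of a group like that of the low-Ttr libraries. These shares therefore do not apply to genes that vary within groups, as most of the cilia genes did.

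The cilia genes and the lists (other motile cilia, ependymal, choroid plexus, primary cilium, neuron and astrocyte genes) were chosen with earlier results of these data known. Named genes are the 34, Hepacam, Ttr, the genes of each other list past the threshold or the 4 of smallest p, and the 10 most alike in profile. Drc7, Pifo, Ccdc113, Otx2, Wfs1, Nnat, Gm19935, the regulators and the unlisted values of the marker lists were named after their values were seen. Alternatives were other scalings, filters, pseudocounts and fits, a replicate block, and libraries left out. The Ttr slopes and the limma-voom fits with 1 library left out were added after the data were seen. Intervals are at the 95% level. Replicate numbers did not pair the libraries. Plots were made in Python 3.11.15 with matplotlib 3.10.9.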

Additional observations from a re-analysis of the deposited data

How the results depend on the processing

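No cilia gene on the list was called in any of 19 alternatives or in the added limma-voom fits with 1 library left out, and the median change of the 19 tested ran from -0.18 to 0.16 with 1 library left out. The direction of 24 of the 34 differed between fits. The number of genes called over the whole table did depend on the settings. Against 587 higher and 255 lower, quantile normalization gave 390 higher (341 lower), scaling to the median gene 336 higher (347 lower), no filter 121 higher and 48 lower, limma without trend 153 lower, limma-voom with TMM scaling 424 lower, and the fit without both low-Ttr libraries 91 higher and 13 lower. Leaving out 1 library gave 75 to 551 higher and 23 to 316 lower. With a replicate block 112 were higher and 45 lower. Replicate numbers did not pair the libraries (correlations of -0.21, 0.0155 and -0.145 between libraries of the same number), and no library correlated best with its own number. In the wider cilia list 1 gene was higher with no filter, with the 0.1 RPKM filter, and in limma-voom with and without TMM scaling (Mcidas each time), and 1 was lower with TMM scaling (Rfx3, -0.40, limma-voom adjusted p = 0.045). Of the choroid plexus markers, 1 was lower without both low-Ttr libraries (Otx2, -0.99, limma adjusted p = 0.0311). Hepacam changed by -0.54 (limma adjusted p = 0.0695) in that fit and by -0.68 to -0.58 with 1 library left out, where it failed the threshold without shControl replicate 3 (-0.62). The cause of these differences was not tested. Reads per library ran from 2 to 580, and the low counts (Spag17 with 2 to 12, Dynlrb2 with 7 to 61) limit what can be seen in those genes.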
